A study of Mus musculus with 22 samples.

Results

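Oxidative phosphorylation is carried out by the protein complexes of the inner mitochondrial membrane, and the genes of those complexes were followed here through lung epithelial cells (ECs) of 3 mouse genotypes. The members were chosen by symbol among protein-coding genes, as genes named mt-, Nduf followed by a subunit letter and a number, Sdha to Sdhd, Uqcr, Cox4 to Cox8 (without Cox7a2l, a factor of supercomplex assembly) or Atp5. This gave 96 genes of the 21793 protein-coding genes in the count tables, 83 of them nuclear and 13 mitochondrial. Of the nuclear members, 37 belonged to complex I, 4 to complex II, 8 to complex III, 17 to complex IV and 17 to complex V by their symbol. Of the mitochondrial members, 7 belonged to complex I, 1 to complex III, 3 to complex IV and 2 to complex V. The symbol class also took in Atp5s, which is not a core subunit of the ATP synthase, and Ndufa4, which is named for complex I and is known to associate with complex IV.

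ECs had been sorted as CD45-EpCAM+ cells from the lungs of adult C57BL/6 wild type (WT) mice and of mice lacking the aryl hydrocarbon receptor (AhR-/-) or the cytochrome P450 enzyme CYP1B1 (CYP1B1-/-), both knockouts being present in every cell of the body. The mice were either at steady state, labelled naive, or sensitized through the nose with extract of the house dust mite Dermatophagoides farinae (HDM). There were 4 WT, 3 AhR-/- and 3 CYP1B1-/- libraries at steady state and 4 libraries of each genotype after HDM, 22 in all. The 2 states were deposited as separate count tables, so that the state of the mice and the sequencing run cannot be told apart. No source used here says whether a library held the cells of 1 mouse or of several, and p-values measure the spread between these libraries.

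Complexes I and II pass electrons from NADH and succinate to coenzyme Q, complex III passes them on to cytochrome c and complex IV to oxygen, while complexes I, III and IV move protons across the membrane and complex V, the ATP synthase, uses their return to make ATP. Complex II is encoded in the nucleus alone, and the other complexes are built from proteins of both genomes. The mitochondrial genes are transcribed from both strands of a small circular genome into long precursors that are cut into single messages, so that their levels depend on processing and stability as well as on transcription. In the lung, alveolar type 2 cells and ciliated cells are known to be rich in mitochondria.

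Total counts were 10476829 to 17707000 per library at steady state and 9654825 to 17878442 after HDM. After HDM, 6 predicted genes took between 0.0115% and 88.8% of the protein-coding counts, and between 1180756 and 16447855 protein-coding counts were left for the other genes. CPM values, counts scaled to a common library size, were computed below with the trimmed mean of M values (TMM), and 3 counts amounted to 0.138 to 0.213 CPM at steady state and 0.107 to 1.36 CPM after HDM. Ahr was at 15.5 to 20.1 CPM in the libraries labelled AhR-/- and 6.38 to 12.3 CPM in WT at steady state, and at 12.8 to 25.5 and 9.62 to 20.0 CPM after HDM. Cyp1b1 was at 3.62 to 5.89 CPM in the libraries labelled CYP1B1-/- and 0.644 to 1.91 CPM in WT at steady state, and at 4.98 to 13.5 and 0.897 to 2.31 CPM after HDM. The targeted genes were thus not lower in the libraries labelled as knockouts, where reads over all exons of a gene were summed, and genotypes below are those of the labels. Epcam was detected in every library, at 68.2 CPM or more, and Ptprc, the gene of the CD45 protein used to exclude leukocytes in the sort, was at 2.02 to 52.6 CPM at steady state and 14.8 to 669 CPM after HDM. The 24 hematopoietic markers, each with at least 1 count in every group, summed to 472 to 1857 CPM at steady state, 6195 to 14646 CPM in WT after HDM, 1320 to 10163 CPM in AhR-/- after HDM and 7252 to 15155 CPM in CYP1B1-/- after HDM. The Y-linked gene Ddx3y was above 1 CPM in all steady-state libraries and, after HDM, in AhR-/- replicates 3 and 4 alone, called below the libraries with Y-linked reads. In WT and CYP1B1-/- the states therefore also differ throughout in Y-linked reads, and this cannot be told apart from HDM. Fewer cells of a type and less RNA per cell cannot be told apart in these bulk libraries.

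Of the 13 mitochondrial genes, 7 had close copies in 1 stretch of nuclear chromosome 1, so that reads of gene and copy may not be told apart. Beyond these 7 copies, mt-Nd2 shared 8.19% and mt-Nd5 7.61% of their 50-base words with other annotated transcripts. mt-Co1, mt-Co2 and mt-Atp6 also shared words with further transcripts. The comparisons of gene and copy below cover the 7 copies alone. On mouse chromosome 1, 7 annotated pseudogenes lay side by side over 4663 bases (mm10, chr1:24611535-24616197), each copied from 1 mitochondrial gene. The copies of mt-Co2, mt-Atp6, mt-Co3 and mt-Nd4l were identical to the gene over their whole aligned length of 681, 678, 783 and 294 bases. The copy of mt-Nd4 was identical over the 876 bases it covers, and that of mt-Nd3 differed at 1 of 345 bases (T3C, counted from the first base of the gene). The copy of mt-Co1 held the last 492 bases of the gene with 6 differences, T1056A, C1057T, A1059G, A1060G, C1062A and A1066T, again counted from the first base of the gene. The first 60 bases of mt-Co2 (chrM:7013-7072, plus strand) and of its copy Gm28661 (chr1:24615506-24615565, minus strand) are shown because nothing in them tells the 2 genes apart, and bases 1054 to 1113 of mt-Co1 (chrM:6381-6440, plus strand) and the start of its copy Gm29216 (chr1:24616138-24616197, minus strand) because all 6 differences lie there. Capitals mark bases that differ between gene and copy.
mt-Co2: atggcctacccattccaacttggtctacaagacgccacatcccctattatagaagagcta
Gm28661: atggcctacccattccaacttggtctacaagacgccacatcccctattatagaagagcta
mt-Co1: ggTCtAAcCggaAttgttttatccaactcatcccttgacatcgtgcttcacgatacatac
Gm29216: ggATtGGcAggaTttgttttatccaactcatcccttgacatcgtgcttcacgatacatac

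Counts were divided between gene and copy in proportions that differed from gene to gene. The copy held a median of 0.723 counts for each count of mt-Co2 across the 22 libraries, 1.10 for mt-Atp6, 1.01 for mt-Co3 and 0.856 for mt-Nd4l. The median was 0.142 for mt-Nd3, 0.0105 for mt-Co1 and 0.0128 for mt-Nd4, and the copies of the latter 2 cover only a part of the gene. How reads with several positions were treated is not stated, so levels of mt-Co2, mt-Atp6, mt-Co3, mt-Nd4l and mt-Nd3 are uncertain, and so are comparisons of their level with other genes. The same holds for mt-Co1 and mt-Nd4 over the part that each shares with its copy.

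**Figure D1:**
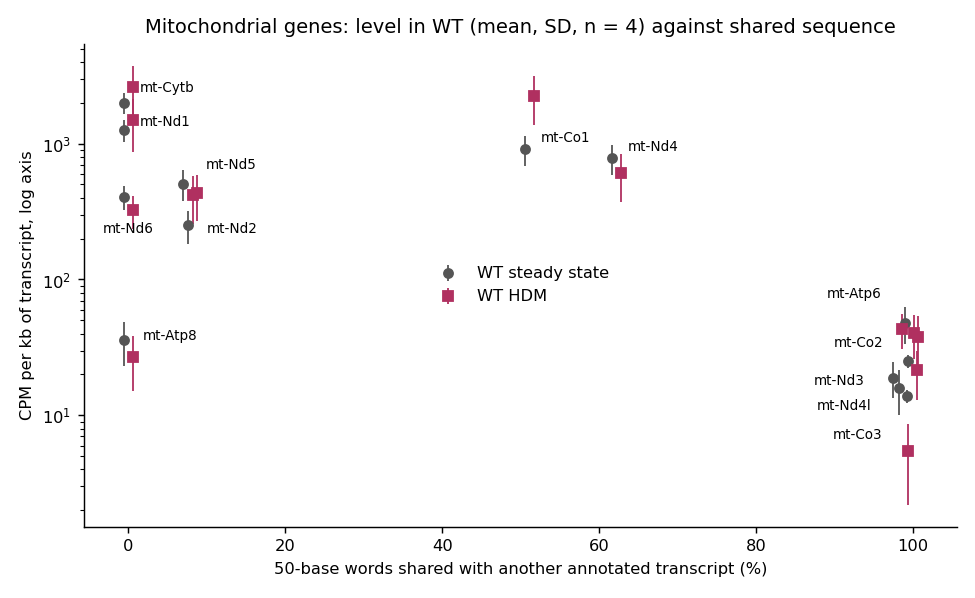
Mean CPM per kb of transcript (log axis, bars are SD, n = 4) of the 13 mitochondrial genes in WT at steady state and after HDM, against the percentage of 50-base words that each gene shares with another annotated transcript. The 5 genes that share nearly all their words (97.99% or more) all lie below 50 CPM per kb, and mt-Atp8, which shares none, also lies there.

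Levels of the mitochondrial genes, per kb of transcript, spanned 2 orders of magnitude. In WT at steady state, mt-Cytb, the only complex III protein of the mitochondrial genome, was highest, followed by mt-Nd1 and mt-Co1, subunits of complexes I and IV. Their levels were 2001, 1260 and 906 CPM per kb (means, n = 4). Lowest were 4 of the 5 genes that share nearly all their 50-base words, with mt-Co3 at 13.9, mt-Nd4l at 15.9, mt-Nd3 at 19.0 and mt-Co2 at 25.1 CPM per kb, and the fifth, mt-Atp6, was at 48.0 CPM per kb. mt-Co1 and mt-Nd4, which share 51.1% and 62.2% of their words and keep a part that is not shared, were at 906 and 778 CPM per kb. mt-Atp8, which overlaps the start of mt-Atp6 on the same strand, was at 36.0 CPM per kb, and none of its 50-base words are shared. The part of sharing in these levels was not tested. After HDM the order in WT changed, with mt-Nd1 at 2619, mt-Co1 at 2257 and mt-Cytb at 1502 CPM per kb. Within a library, mt-Cytb was above mt-Nd1 and mt-Nd1 above mt-Co1 in 4 of 4 WT libraries at steady state. After HDM mt-Nd1 and mt-Co1 were each above mt-Cytb in 4 of 4, and mt-Nd1 was above mt-Co1 in 3 of 4. These levels are a description and were not tested.

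One steady-state library stood apart in its mitochondrial genes. In CYP1B1-/- replicate 2, mt-Co1 was at 86.1 CPM, against 1018 to 1777 CPM in the other 9 steady-state libraries, and mt-Cytb was at 92.1 CPM against 1803 to 3710 CPM. All 13 mitochondrial genes were lower there, by 2.10 to 4.77 on the log2 scale against the mean of the other 9 libraries, with a median difference of -3.62. The nuclear members had a median difference of -0.75, and 6 of 80 (7.5%) were lower by 2 or more. Among 15433 other protein-coding genes the median was -0.02, and 2.27% were lower by 2 or more. The mitochondrial genes have a GC content of 31.9% to 41.1%, and the 1981 other genes with a GC content at or below 41.1% had a median difference of -0.72, with 8.18% lower by 2 or more. Across genes of this 1 library, Spearman's rho between GC content and the difference was 0.34 for the 75 nuclear members with a mean of 20 counts or more and 0.44 for the 12481 protein-coding genes past the same limit, members included (a description, since genes are not independent replicates). The part of GC content in the loss of mitochondrial counts was not tested. Values for CYP1B1-/- at steady state are therefore given with this library, and the counts of calls without it follow where they differ.

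**Figure D2:**
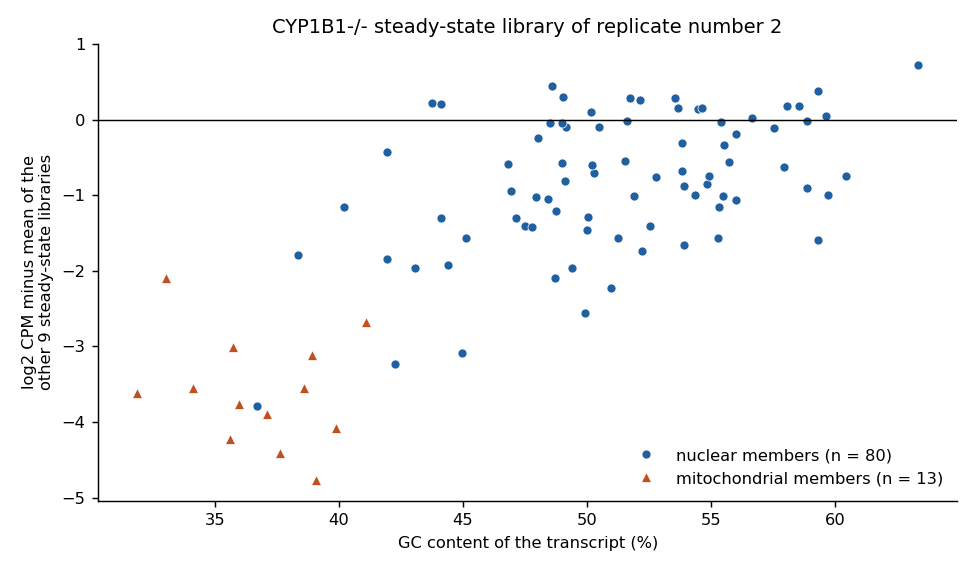
Difference of log2 CPM in CYP1B1-/- steady-state replicate 2 from the mean of the other 9 steady-state libraries (y axis), against GC content of the transcript (x axis), for each mitochondrial gene (triangles) and nuclear member (circles). All 13 triangles lie below -2, whereas the nuclear members spread from -3.79 to 0.73.

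The share of protein-coding counts, outside the 6 predicted genes, that came from the mitochondrial genes was 1.40% ± 0.38 in WT (SD, n = 4), 1.47% ± 0.092 in AhR-/- (n = 3) and 1.05% ± 0.84 in CYP1B1-/- (n = 3) at steady state. The CYP1B1-/- mean is lowered by replicate 2 with 0.0846%, while replicates 3 and 4 held 1.63% and 1.43%, and its difference from WT turned from -0.35 to 0.13 percentage points without replicate 2. Without that library the nuclear difference turned as well, from -0.03 to 0.02 percentage points. After HDM it was 2.01% ± 0.49 in WT, 2.43% ± 0.57 in AhR-/- and 3.02% ± 0.42 in CYP1B1-/- (n = 4 each). The CYP1B1-/- libraries after HDM held 2.42% to 3.33% and the WT libraries 1.57% to 2.65%, which overlapped. The nuclear members took 0.694% ± 0.035, 0.668% ± 0.034 and 0.666% ± 0.090 of counts in WT, AhR-/- and CYP1B1-/- at steady state and 1.15% ± 0.19, 0.901% ± 0.25 and 1.01% ± 0.20 after HDM. In WT the nuclear share did not overlap between the states, at 0.671% to 0.745% at steady state and 0.879% to 1.32% after HDM. The 95% Wilson intervals of the mitochondrial share reached at most 0.0282 percentage points to either side and cover counting error only.

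The 14 exact two-sided permutation tests of these shares could not pass after Benjamini-Hochberg adjustment, as the lowest adjusted p they allow, with every test at its smallest p, is 0.0571. Their p are therefore given as descriptions. The difference of the nuclear share in WT between the states had p = 0.0286 in the exact test, the smallest that 4 against 4 libraries allow, and adjusted p = 0.16. The mitochondrial share of CYP1B1-/- against WT after HDM had p = 0.0571 in the exact test and adjusted p = 0.16. With 3 against 4 libraries no p below 0.0571 is possible in the exact test, which was reached for the mitochondrial share in AhR-/- and for both shares in CYP1B1-/- between the states (adjusted p = 0.16 each). For AhR-/- against WT after HDM the exact p was 0.286 for the mitochondrial and 0.2 for the nuclear share, and the ranges overlapped.

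**Figure D3:**
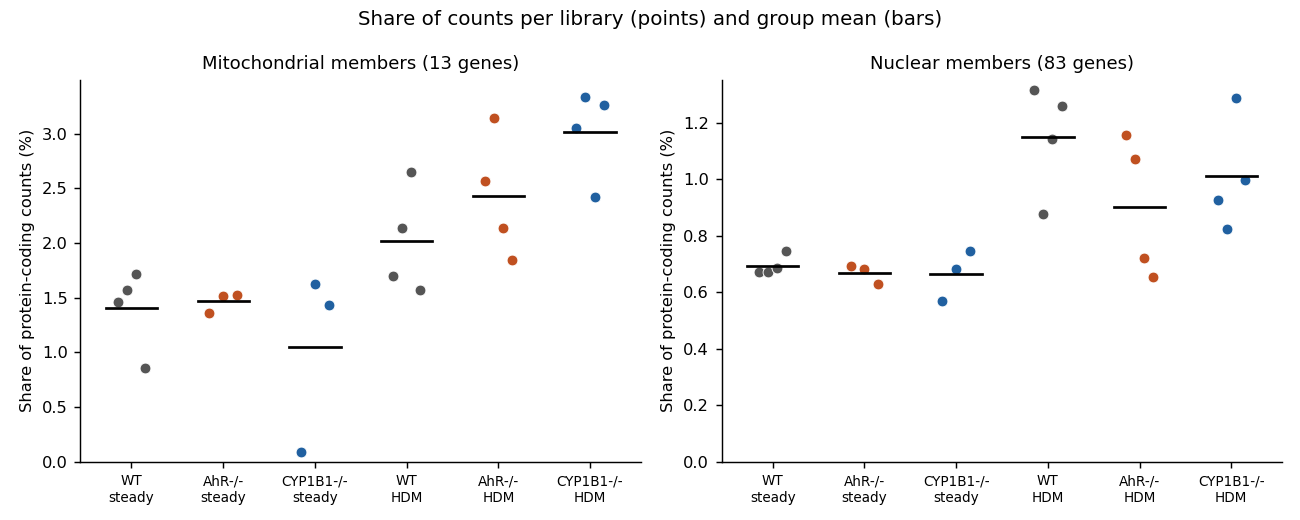
Share of protein-coding counts (%) from the 13 mitochondrial genes (left) and the 83 nuclear members (right) in each library (points) of the 6 groups, with the group mean as a bar. The low mitochondrial point at steady state is CYP1B1-/- replicate 2 with 0.0846%, and the WT nuclear points after HDM all lie above those at steady state.

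The balance between mitochondrial genes also differed between groups. Within a library, mt-Co1 held 0.508 to 0.734 counts per count of mt-Cytb in WT at steady state and 1.59 to 3.27 after HDM, with no overlap. After HDM the ratio was 0.497 to 1.40 in AhR-/- and 0.729 to 1.77 in CYP1B1-/-, so that no AhR-/- library reached the WT range and the CYP1B1-/- libraries overlapped with it. The ratio of mt-Nd1 to mt-Nd5, complex I genes at the start and towards the end of the same strand, was 1.09 to 1.59 in WT at steady state and 2.07 to 4.62 after HDM. After HDM it was 1.88 to 4.14 in AhR-/- and 2.06 to 3.05 in CYP1B1-/-, so that the genotypes overlapped. These ratios were chosen after the values were seen and were not tested. Over libraries, the mean log2 CPM of the mitochondrial and of the nuclear members correlated with Pearson's r = 0.84 at steady state (n = 10, permutation p = 0.0549, adjusted p = 0.0991; Spearman's rho = 0.37, permutation p = 0.292). Without the 2 libraries farthest from the median of the mitochondrial mean, CYP1B1-/- replicate 2 and WT replicate 4, r was 0.81. After HDM r was 0.50 (n = 12, permutation p = 0.0991, adjusted p = 0.0991; rho = 0.55, permutation p = 0.0717) and 0.40 without the 2 farthest libraries. With the relative log expression (RLE) normalization it was 0.29 (rho = 0.13) and turned to -0.17 without the same 2 libraries, AhR-/- replicate 4 and WT replicate 4, so that with RLE the relation after HDM rests on them. Both means share the composition and depth of each library.

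The nuclear members reached at most 183 CPM per kb in mean at steady state, below 7 of the 13 mitochondrial genes in WT. The median member of complexes I, II, III, IV and V was at 36.0, 48.8, 56.1, 17.8 and 55.4 CPM per kb over the 10 steady-state libraries and at 49.8, 67.3, 79.4, 25.1 and 67.4 CPM per kb over the 12 libraries after HDM. In complex V, Atp5b, the catalytic beta subunit, was highest in both states, with 183 ± 33 CPM per kb at steady state and 221 ± 113 after HDM (SD over the libraries of a state). In complex IV the highest member was Cox6a1 at steady state with 175 ± 24 CPM per kb and Cox4i1, the common isoform of subunit 4, after HDM with 222 ± 69 CPM per kb. In complex I, Ndufa4 was highest, at 155 ± 38 and 149 ± 59 CPM per kb. In complex III, Uqcr10 led at steady state with 73.5 ± 10 and Uqcrh, the hinge protein, after HDM with 116 ± 43 CPM per kb, and the lowest members were Uqcrq at steady state, at 30.8 CPM per kb, and Uqcrc2 after HDM, at 38.2 CPM per kb. In complex II the flavoprotein gene Sdha was highest at steady state, at 61.0 ± 10 CPM per kb, and the iron-sulfur gene Sdhb after HDM, at 81.4 ± 27 CPM per kb, while the membrane anchor gene Sdhc was lowest in both, at 9.49 and 14 CPM per kb. The other anchor gene, Sdhd, was at 48.6 CPM per kb in WT at steady state and 73.9 CPM per kb after HDM. Atp5l, which encodes the small membrane subunit g, was lowest in complex V, at 1.28 and 1.54 CPM per kb. These ranks are of means over all genotypes of a state, and within a genotype the highest member could differ. After HDM, Ndufa6 was above Ndufa4 per kb in WT. In AhR-/- after HDM, Atp5g3 was above Atp5b and Uqcr10 above Uqcrh.

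Tissue isoforms of complex IV were far below their common counterparts, per kb, in WT at steady state. The heart and muscle isoforms Cox6a2 and Cox7a1 were at 3.79 and 6.28 CPM per kb, against 176 for Cox6a1 and 80.9 for Cox7a2. The testis isoforms Cox6b2 and Cox7b2 were at 1.22 and 2.55 CPM per kb, against 113 for Cox6b1 and 35.9 for Cox7b. Cox4i2, known as the isoform of lung and of oxygen-sensing cells, was at 0.254 CPM per kb against 143 for Cox4i1, and Ndufa4l2, a relative of Ndufa4 known to respond to low oxygen, was at 0.648 CPM per kb against 157. Cox8b and Cox8c had at most 3 counts in any library, against 83.4 CPM per kb for Cox8a. These low levels bear on the isoform changes given below, which rest on few counts.

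HDM against steady state in WT was the comparison with the most changed members. At an adjusted p of 0.05 (edgeR's quasi-likelihood test, Benjamini-Hochberg over all genes tested), 17 of the 81 nuclear members tested were higher after HDM and 4 were lower, beside 19% of all 16639 genes tested that were higher and 19.4% that were lower. The nuclear members called higher, 17 of 81, were thus near the background share. Their direction differed from that of other genes, as 65 of 81 nuclear members (80.2%) had a log2 fold change above 0, against 45.9% of all genes, and their median was 0.45, against -0.11 for all genes. Over the other settings with all libraries, the nuclear median was 0.30 to 0.60 and the median of all genes -0.20 to -0.01, and with 1 library left out the nuclear median was 0.27 (without HDM replicate 1) to 0.66 (without HDM replicate 2). The libraries of the states did not overlap for 16 nuclear members that were higher and 5 that were lower, against 17.7% and 21.2% of all genes. Of the 13 mitochondrial genes, 1 was called, and their median was -0.24, which turned to 0.03 with a score of hematopoietic markers as a covariate and to 0.27 over the 10 genes with at least 10 counts in every library, and was -0.02 without HDM replicate 4.

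The 21 nuclear calls fell mostly on complexes IV and V. In complex V 7 members were higher and 2 lower of 17 tested (median log2 fold change 0.81), in complex IV 6 were higher and 2 lower of 15 (0.64), in complex I 3 were higher of 37 (0.35), in complex III 1 was higher of 8 (0.56) and in complex II none of 4 was called (0.61). Cox5a, a nuclear accessory subunit of complex IV, was at 26.1, 25.5, 25.6 and 39.1 CPM in the WT libraries at steady state and 102, 41.1, 90.1 and 78.7 CPM after HDM. The states did not overlap, and replicate 2 after HDM lay just above the highest steady-state library. The log2 fold change was 1.43 (SE 0.35, adjusted p = 0.00251 in edgeR's quasi-likelihood test).

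Atp5f1, the b subunit of the stator that holds the ATP synthase head in place, was at 74.5, 77.7, 91.0 and 113 CPM at steady state and 294, 127, 265 and 182 CPM after HDM in WT, again without overlap. Its log2 fold change was 1.29 (SE 0.34, edgeR adjusted p = 0.00395). Ndufv2, which carries an iron-sulfur cluster in the NADH-oxidising tip of complex I, was at 49.9, 47.3, 56.2 and 74.6 CPM at steady state and 160, 80.9, 137 and 91.2 CPM after HDM. Its log2 fold change was 1.04 (SE 0.29, edgeR adjusted p = 0.00566). In these genes the highest steady-state library was replicate 4 and the lowest HDM library replicate 2, and the latter kept 84.1% of its protein-coding counts in the 6 predicted genes.

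Most other members that passed upwards had log2 fold changes between 0.77 and 1.33, with Cox6b2, described next, above them. Cox5b, the zinc-binding subunit of complex IV, was 1.31 higher on the log2 scale (SE 0.32), Ndufa6, an accessory subunit of complex I, 1.33 (SE 0.34), Cox8a 1.18 (SE 0.33) and Cox7b 1.17. The c-ring of the ATP synthase is encoded by Atp5g1, Atp5g2 and Atp5g3, and all 3 were higher, with log2 fold changes of 1.04, 1.25 and 1.2. Atp5c1, the gamma subunit that turns in the head, was 1.11 higher, and Atp5h and Atp5j, both of the stator, 0.98 and 0.77 higher. Uqcrfs1, the Rieske protein of complex III, was 0.99 higher, Ndufb5 0.85 and Cox4i1 0.79. The adjusted p of these genes lay at or below 0.05 in edgeR's quasi-likelihood test, and over the alternatives tried each lost its call in at least 1. With each of the 8 libraries left out in turn, Cox5b, Ndufa6, Cox8a, Atp5g1 and Atp5g3 kept their calls, as did Cox5a, Atp5f1 and Ndufv2. Atp5c1 lost its call in 1 of these fits, Uqcrfs1 in 2, Cox7b in 3, Atp5h in 4, Atp5j, Ndufb5 and Cox4i1 in 5 and Atp5g2 in 6.

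The largest change among the higher members was that of the testis isoform Cox6b2, at 0.776, 0.864, 0.542 and 0.506 CPM at steady state and 5.38, 1.78, 4.57 and 4.68 CPM after HDM in WT. It rested on 13, 14, 8 and 11 counts at steady state and 120, 7, 30 and 73 counts after HDM, without overlap in CPM (log2 fold change 2.63, SE 0.56, edgeR adjusted p = 0.000688). Its common counterpart Cox6b1 was at 62.3 to 79.0 CPM at steady state and 66.0 to 124 CPM after HDM, which overlapped. The muscle isoform Cox7a1 went the other way, at 1.97, 2.22, 2.23 and 3.45 CPM at steady state and 0.718, 0.507, 0.304 and 0.769 CPM after HDM, without overlap (log2 fold change -2.01, SE 0.55, edgeR adjusted p = 0.00546). It rested on 33, 36, 33 and 75 counts at steady state and 16, 2, 2 and 12 after HDM, so that the size of its change is uncertain. Cox7b2 had 35, 26, 21 and 9 counts at steady state and 0, 1, 0 and 4 after HDM and was called lower (adjusted p = 0.0128 in edgeR), but a size cannot be read from so few counts. The other members called lower were Atp5s (log2 fold change -0.92, SE 0.34, edgeR adjusted p = 0.0357) and Atp5k, the e subunit that joins ATP synthase dimers (-0.84, SE 0.33, edgeR adjusted p = 0.0483). Of the 8 fits that left out 1 library, 6 ended the call of Atp5s and 7 that of Atp5k, while Cox6b2, Cox7a1 and Cox7b2 kept theirs in all 8.

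Among the mitochondrial genes in WT, mt-Nd4l alone passed, at 4.36, 5.62, 6.43 and 2.48 CPM at steady state and 1.39, 1.01, 3.04 and 1.03 CPM after HDM. The ranges overlapped, and mt-Nd4l is one of the genes with an identical nuclear copy (log2 fold change -1.56, SE 0.52, edgeR adjusted p = 0.0209). Its call ended in 4 of the 8 fits that left out 1 library. mt-Co1 was at 1198, 1603, 1777 and 1018 CPM at steady state and 4185, 3061, 4912 and 1790 CPM after HDM, without overlap but without a call. mt-Cytb was at 2360, 2186, 2808 and 1803 CPM at steady state and 1279, 1745, 2724 and 1126 CPM after HDM.

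The hematopoietic markers were higher in every WT library after HDM than in any WT library at steady state (6195 to 14646 against 789 to 1857 summed CPM, all 24 with a count in both groups, and 23 and 24 of them above 3 counts in some library at steady state and after HDM), and those of alveolar type 1 cells lower (709 to 5094 against 24419 to 29824 summed CPM, 7 of 7 above 3 counts in some library of both). With a score of the hematopoietic markers as a covariate, 0 of 81 nuclear members and 0 of 13 mitochondrial genes passed in edgeR and the nuclear median was 0.30. That score ranged from -0.34 to 3.39 at steady state and 2.14 to 5.71 after HDM, so that it is largely bound to the state. Between the same WT libraries the ciliated cell markers went from 338 to 642 summed CPM at steady state to 118 to 200 after HDM (6 of 6 above 3 counts in some library of both), the epithelial markers from 1176 to 1972 to 489 to 798 (5 of 5) and the genes of dissociation stress from 152 to 274 to 561 to 1221 (8 of 8), each without overlap. Those of alveolar type 2 cells overlapped, at 2387 to 5342 and 4378 to 24512 summed CPM (8 of 8). Epcam, the gene of the sort marker, did not fall with the epithelial list. In WT its mean was 108 CPM (86.2 to 148) at steady state and 196 CPM (107 to 270) after HDM, with overlap. Its means in AhR-/- were 106 and 126 CPM, and in CYP1B1-/- 190 and 206 CPM. In both AhR-/- and CYP1B1-/-, the hematopoietic and alveolar type 2 markers were higher and the alveolar type 1, ciliated and epithelial markers lower in every library after HDM than in any at steady state. The part of these other lists in the changes between the states was not tested.

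In AhR-/-, HDM against steady state gave 3 higher and 1 lower nuclear members of 81, beside 10.6% and 10.1% of all 16639 genes, and 0 of 13 mitochondrial genes (2 of them at an unadjusted p under 0.05 in edgeR, 0 called by DESeq2, 1 by limma voom). With the hematopoietic score as a covariate 0 of 81 nuclear members passed. The mitochondrial median was 0.60, with 9 of 13 above 0, and it was 0.11 with limma voom and 0.29 (without HDM replicate 1) to 0.92 (without HDM replicate 4) with 1 library left out. The libraries of the states stood apart for 5 higher and 1 lower mitochondrial gene, beside 12.7% and 23.2% of all genes. Again 70 of 81 nuclear members (86.4%) had a log2 fold change above 0, against 48.2% of all genes, and the median was 0.39, against -0.05 for all genes. With limma voom and sample weights the nuclear median was close to 0 (0.0039), and it was 0.16 without HDM replicate 1 and 0.63 without HDM replicate 4. The libraries of the states stood apart for 10 higher and 2 lower nuclear members, beside the same shares of all genes. Cox6b2 was again called, at 0.779, 0.747 and 0.492 CPM at steady state and 3.69, 5.67, 0.910 and 0.353 CPM after HDM (log2 fold change 2.09, SE 0.62, edgeR adjusted p = 0.02). The muscle isoform Cox6a2 was at 3.47, 1.78 and 1.66 CPM at steady state and 14.4, 13, 2.73 and 3.36 CPM after HDM (1.92, SE 0.58, edgeR adjusted p = 0.0226). In both genes replicates 1 and 2 after HDM were far above the steady state. Replicates 3 and 4 lay within the steady-state range for Cox6a2, and just above and just below it for Cox6b2. Leaving out 1 of the 7 libraries ended the call of Cox6b2 in 5 fits and that of Cox6a2 in 4. Replicates 3 and 4 are the libraries with Y-linked reads, and their hematopoietic scores of 2.54 and 2.14 lay below those of replicates 1 and 2 (4.15 and 5.12). Ndufa12, an accessory subunit of complex I, was at 15.5, 17.2 and 18.1 CPM at steady state and 52.9, 23.4, 32.3 and 18.9 CPM after HDM, without overlap (log2 fold change 0.92, SE 0.31, edgeR adjusted p = 0.0387). This call ended in 4 of the 7 fits that left out 1 library, and the log2 fold change was 0.54 without HDM replicate 1. Cox7b2 was called lower, with 16, 21 and 15 counts at steady state and 0, 2, 1 and 0 after HDM, and this call ended in 6 of the 7 fits.

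In CYP1B1-/-, 3 nuclear members were higher and 2 lower of 81, beside 15.5% and 17.9% of all 16639 genes. There 59 of 81 nuclear members (72.8%) had a log2 fold change above 0, against 49.2% of all genes, and the median was 0.31, against -0.02. The nuclear median was -0.03 with limma voom and 0.08 with the hematopoietic score, and 0.18 (without HDM replicate 3) to 0.57 (without HDM replicate 2) with 1 library left out. The libraries of the states stood apart for 10 higher and 3 lower nuclear members, beside 14.2% and 17.3% of all genes. Cox6b2 was at 0.425, 0.710 and 0.648 CPM at steady state and 1.44, 2.88, 4.63 and 3.98 CPM after HDM (log2 fold change 2.45, SE 0.63, edgeR adjusted p = 0.00374). Atp5f1 was at 52.5, 100 and 107 CPM at steady state and 139, 145, 254 and 201 CPM after HDM (1.10, SE 0.37, edgeR adjusted p = 0.0237). Neither gene overlapped between the states, and Cox5a was called as well (1.06, SE 0.38, edgeR adjusted p = 0.0359). Cox7a1 was lower, at 0.780, 3.65 and 2.42 CPM at steady state and 0, 0.576, 0.403 and 0.586 CPM after HDM (-2.46, SE 0.60, edgeR adjusted p = 0.00254). It rested on 11, 72 and 41 counts at steady state and 0, 2, 8 and 10 after HDM, so that the size of its change is uncertain. Atp5s was lower as well (-0.96, SE 0.36, edgeR adjusted p = 0.0446). Leaving out 1 of the 7 libraries ended the call of Cox5a in 4 fits (0.67 without HDM replicate 3), of Atp5s in 5 and of Atp5f1 in 1, while Cox6b2 and Cox7a1 kept theirs. All 5 nuclear calls, Cox6b2 and Cox7a1 included, ended with the hematopoietic score as a covariate.

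The mitochondrial genes of CYP1B1-/- had a median log2 fold change of 0.73 between the states, and 12 of 13 were above 0. The median was 0.46 without replicate 2 at steady state, 1.10 and 1.21 without replicates 3 and 4, and 0.20 with limma voom. mt-Co1 was the single call, at 86.1, 1448 and 1636 CPM at steady state and 3912, 4230, 3009 and 3657 CPM after HDM (log2 fold change 1.81, SE 0.62, edgeR adjusted p = 0.0278). The lowest of these values is that of replicate 2 at steady state, the library described above, and the states stayed apart without it. Without that library 3 mitochondrial genes were called. With the hematopoietic score as a covariate, the replicate number as a block or only the compared groups, none was.

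**Figure D4:**
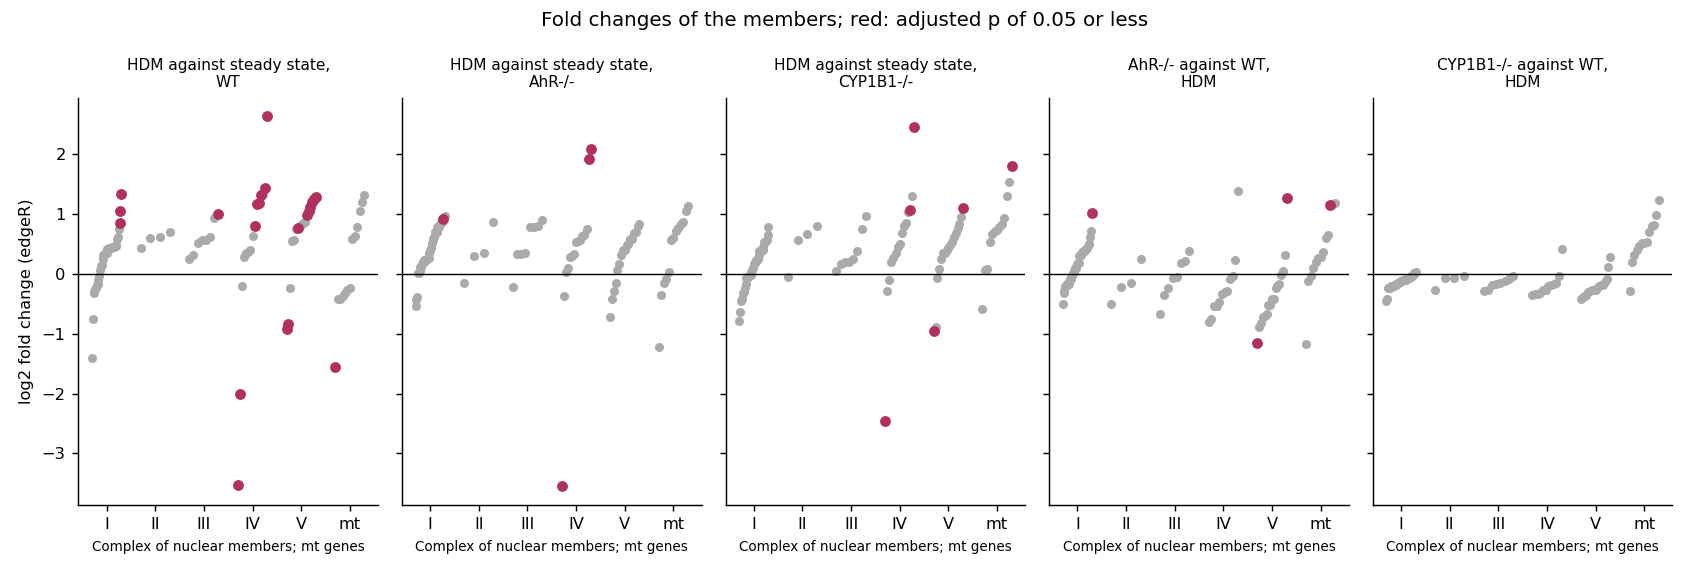
log2 fold change of each member tested (points) in 5 comparisons, with nuclear members by complex (I to V) and the mitochondrial genes (mt) along the x axis, and red for an adjusted p of 0.05 or less in edgeR. Nuclear members lie mostly above 0 between the states, 65 of 81 in WT, and mostly below 0 in CYP1B1-/- against WT after HDM, 71 of 77.

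AhR-/- against WT after HDM changed 22.1% of all 14161 genes tested (9.22% higher, 12.9% lower), and few of the members. Of 77 nuclear members tested, 2 were higher and 1 lower (3.90% in all), and of the 13 mitochondrial genes 1 was higher. At an unadjusted p under 0.05 there were 10 nuclear members and 4 mitochondrial genes, beside 38.8% of all genes. The median log2 fold change was -0.08 for the nuclear members, 0.27 for the mitochondrial genes and 0.00 for all genes. Neither direction held over the alternatives, as the nuclear median turned to 0.21 with the hematopoietic score, 0.22 without the libraries with Y-linked reads and 0.04 without AhR-/- replicate 4 and was -0.30 with limma voom. The mitochondrial median turned to -0.09 with limma voom and was 0.55 with the hematopoietic score and 0.60 without the libraries with Y-linked reads. By complex the nuclear medians were 0.17 for complex I (24 of 36 above 0), -0.18 for II, -0.06 for III, -0.31 for IV (2 of 12 above 0) and -0.43 for V (3 of 17 above 0).

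Atp5b, the catalytic subunit of the ATP synthase, was at 708, 301, 756 and 543 CPM in WT and 250, 399, 140 and 225 CPM in AhR-/- after HDM. The groups overlapped through WT replicate 2 and AhR-/- replicate 2 (log2 fold change -1.16, SE 0.38, edgeR adjusted p = 0.0453). Atp5s, an ATP synthase coupling factor, was at 15.4, 9.39, 9.28 and 6.35 CPM in WT and 25.8, 11.5, 32.3 and 26.9 CPM in AhR-/- (1.27, SE 0.33, edgeR adjusted p = 0.0277). Ndufb4, an accessory subunit of complex I, was at 7.58, 6.09, 5.63 and 4.74 CPM in WT and 17.6, 8.24, 15.9 and 7.42 CPM in AhR-/- (1.02, SE 0.32, edgeR adjusted p = 0.0402). In both genes 3 of 4 AhR-/- libraries lay above all WT libraries, and the lowest lay within the WT range.

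Among the mitochondrial genes, mt-Atp6, the proton channel subunit of the ATP synthase, was at 37.4, 27.1, 32.0 and 14 CPM in WT and 117, 41.6, 53.7 and 32.2 CPM in AhR-/- after HDM (log2 fold change 1.15, SE 0.38, edgeR adjusted p = 0.0473). It has an identical nuclear copy. mt-Cytb was at 1279, 1745, 2724 and 1126 CPM in WT and 4457, 3136, 4592 and 3216 CPM in AhR-/-. It was the 1 member tested whose groups did not overlap, beside 9.6% of all genes that stood apart upwards and 9.91% downwards, and it did not pass (1.16, SE 0.45, edgeR adjusted p = 0.0744). mt-Atp8 and mt-Nd3 gave 1.19 and -1.18 with adjusted p of 0.0554 and 0.119 in edgeR.

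All 4 calls ended when the AhR-/- libraries with Y-linked reads, replicates 3 and 4, were left out, and when the hematopoietic score entered as a covariate. With the score 0 of 77 nuclear members and 0 of 13 mitochondrial genes passed in edgeR. Without those libraries no member tested passed, in a fit that kept AhR-/- replicates 1 and 2 alone. The calls of the other gene lists, given below, ended in both fits too, so that the loss was not particular to the members. With the replicate number as a block no member passed either. Of the 8 fits that left out 1 library, 6 ended the call of Atp5b, 5 that of Atp5s, 6 that of Ndufb4 and 7 that of mt-Atp6, whose log2 fold change was 0.67 without AhR-/- replicate 1. The hematopoietic markers summed to 1320 to 10163 CPM in AhR-/- against 6195 to 14646 in WT, those of alveolar type 1 cells to 3556 to 21833 against 709 to 5094 and those of club cells to 1625 to 7873 against 192 to 1725, with overlap in each list. Their part in these differences was not tested. With limma voom and sample weights the calls were 5 higher and 25 lower nuclear members, against 2 higher and 1 lower in edgeR. The share of all genes called by limma voom is not given here. It also called more in other gene lists given below. In glycolysis it called 1 higher and 14 lower of 20, against 1 and 8 in edgeR. Among assembly factors it called 9 and 7 of 45, against 4 and 2.

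**Figure D5:**
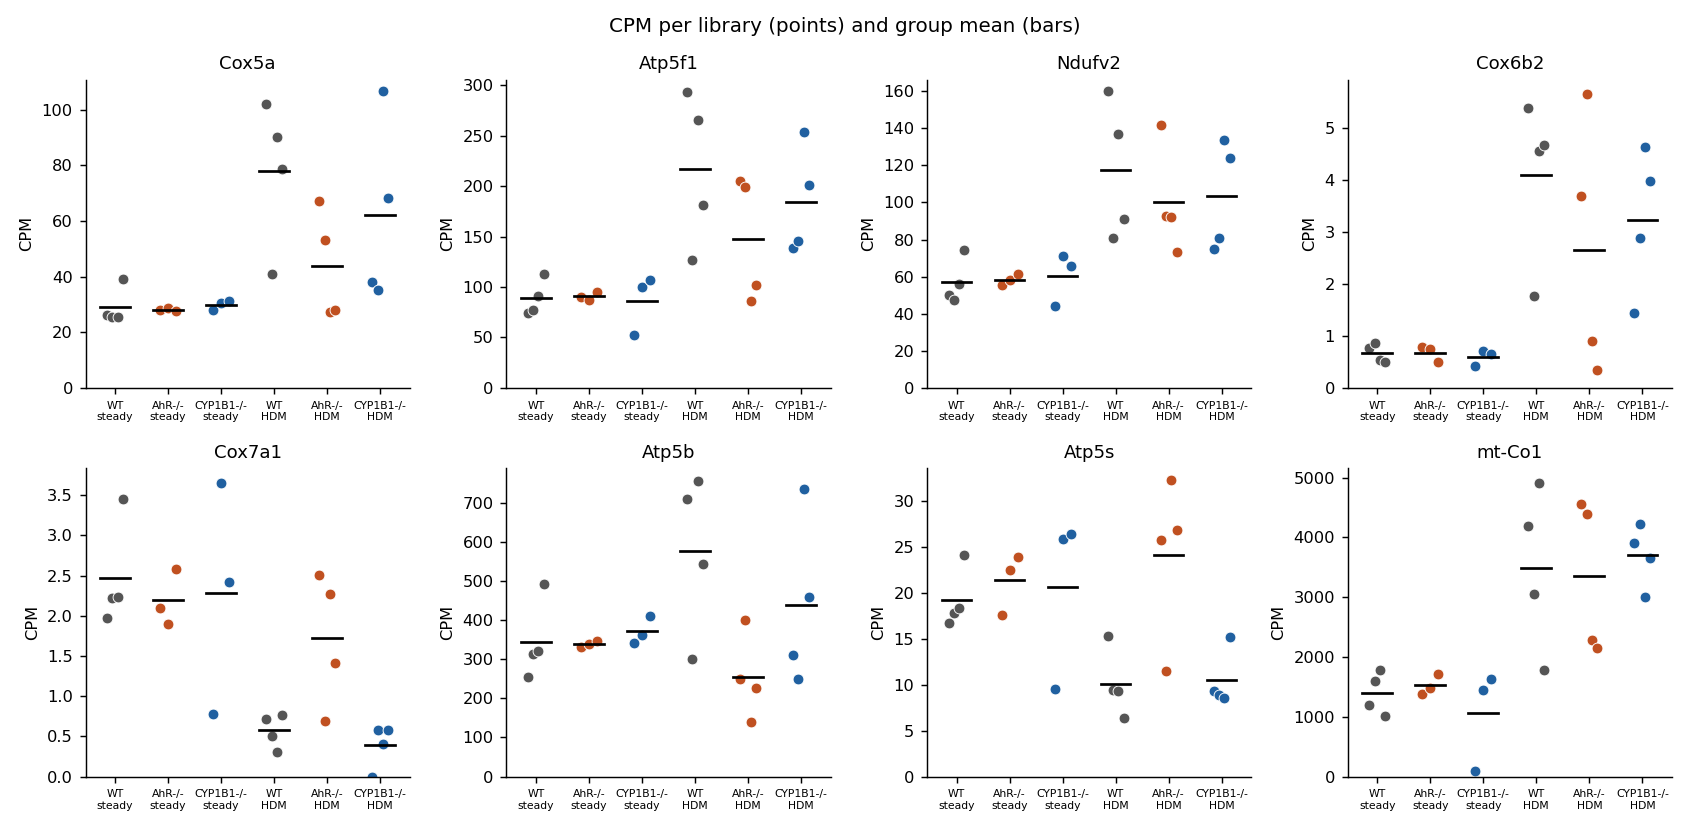
CPM in each library (points) of the 6 groups with the group mean as a bar, for 8 members (y axes start at 0). Cox5a, Atp5f1 and Ndufv2 are higher after HDM in WT without overlap, Cox7a1 is lower, and Atp5b and Atp5s differ between AhR-/- and WT after HDM with libraries that overlap.

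CYP1B1-/- against WT after HDM gave no call in edgeR among 77 nuclear members, 13 mitochondrial genes or all 14161 genes (0%), and none among the members by the likelihood ratio test, DESeq2 or limma voom. At an unadjusted p under 0.05 there were 0 nuclear members and 4 mitochondrial genes (5 by each of the other tools), beside 1.65% of all genes. Only 6 of 77 nuclear members (7.79%) had a log2 fold change above 0, against 48.4% of all genes, and 12 of 13 mitochondrial genes did. The median was -0.18 for the nuclear members, 0.51 for the mitochondrial genes and -0.01 for all genes. The nuclear median was -0.05 with the hematopoietic score and -0.07 without WT replicate 1, and the mitochondrial median was 0.33 without WT replicate 4. The 4 mitochondrial genes were mt-Nd4l (1.23, SE 0.46), mt-Cytb (0.99, SE 0.45), mt-Nd4 (0.80, SE 0.36) and mt-Nd6 (0.69, SE 0.28), each with an adjusted p of 0.999 in edgeR. mt-Nd6, the only mitochondrial protein gene on the light strand, was at 142, 141, 238 and 152 CPM in WT and 236, 255, 257 and 309 CPM in CYP1B1-/-. A single WT library, replicate 3, reached into the CYP1B1-/- range, and no member stood apart between these groups, beside 0.424% of all genes upwards and 0.198% downwards. The nuclear members of lowest p were Ndufa6, Cox7c and Ndufa1, and the unadjusted p of each was above 0.05.

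At steady state no member was called between genotypes. AhR-/- against WT gave 0 of 80 nuclear members and 0 of 13 mitochondrial genes in edgeR, the likelihood ratio test, DESeq2 and limma voom, as 0% of all 15547 genes passed in edgeR. At an unadjusted p under 0.05 there were 0 members in edgeR and 1 in limma voom, beside 1.69% of all genes in edgeR, and the medians were -0.02 for the nuclear members and 0.10 for the mitochondrial genes. Both turned under alternatives, the nuclear median to 0.04 with limma voom and the mitochondrial median to -0.09 with the hematopoietic score and -0.24 with the replicate number as a block. The log2 fold changes of the nuclear members ran from -0.73 to 0.46, and the lowest p were those of Atp5g2, Atp5l and Atp5e. The libraries of AhR-/- and WT stood apart in no member, beside 2.1% of all genes upwards and 1.46% downwards. CYP1B1-/- against WT gave 0 of 80 and 0 of 13 by the same tools, beside 0.0129% of all genes (0.00643% higher and 0.00643% lower). In this comparison 1 nuclear member had p under 0.05 before adjustment in edgeR, beside 5.8% of all genes, and 16 did in limma voom. No member stood apart, beside 1.78% of all genes upwards and 1.15% downwards. That member was Cox7b2, with 0, 5 and 11 counts in CYP1B1-/- and 35, 26, 21 and 9 in WT, followed by Atp5g2 and Atp5k. The medians were -0.09 for the nuclear members and -0.17 for the mitochondrial genes, with a median SE of 0.60 for the latter, against 0.39 for the same genes after HDM. Without CYP1B1-/- replicate 2, the library described above, both medians turned, to 0.14 and 0.39, and with limma voom they turned to 0.17 and 0.16.

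Whether the response to HDM differed between genotypes was asked with the interaction of genotype and state. No member passed in edgeR for AhR-/- or CYP1B1-/-, as 0% of all genes did. At an unadjusted p under 0.05 there were 3 nuclear members for AhR-/-, Atp5s (1.08, SE 0.50), Atp5b (-1.16, SE 0.54) and Cox7a1 (1.63, SE 0.78), with adjusted p of 0.255, 0.255 and 0.266. For CYP1B1-/- there was 1, Cox7b2, and there was no mitochondrial gene for either. The likelihood ratio test and DESeq2 gave no call for either genotype. Limma voom called 1 nuclear member higher and 22 lower and 1 mitochondrial gene lower for AhR-/-, and none for CYP1B1-/-. The share of all genes it called is not given here. The calls in the states of single genotypes given above are therefore not shown to differ between genotypes by edgeR.

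Promoters were read from RefSeq (GRCm38.p6, 250 bases before to 50 after the start of a gene), which held 67 of the 83 nuclear members. Motif letters of 3 factors known to act on genes of the respiratory chain were searched on both strands. The letters GCGCATGC, for NRF1, were present in 10 member promoters (14.9%), against 3.61% of all 17492 promoters. The letters CCGGAAG, for GABPA, were present in 15 (22.4%, against 11.9%) and AAGATGGC, for YY1, in 9 (13.4%, against 3.22%). At least 1 of the 3 was present in 29 (43.3%, against 17.3%). Of the 21 nuclear members called in WT between the states, 20 had a promoter in the table and 6 of these held a motif. The promoters of 4 genes are shown, 250 bases before to 30 after the start, 2 with a motif and higher after HDM (Atp5f1, chr3:105959234-105959513, minus strand, and Ndufa6, chr15:82354262-82354541, minus strand), and those of the isoform genes that moved in opposite directions (Cox6b2, chr7:4753065-4753344, minus strand, and Cox7a1, chr7:30183921-30184200, plus strand), which hold none of the letters in this window. Capitals mark the YY1 letters in Atp5f1 and the NRF1 letters in Ndufa6, each on the opposite strand.
Atp5f1: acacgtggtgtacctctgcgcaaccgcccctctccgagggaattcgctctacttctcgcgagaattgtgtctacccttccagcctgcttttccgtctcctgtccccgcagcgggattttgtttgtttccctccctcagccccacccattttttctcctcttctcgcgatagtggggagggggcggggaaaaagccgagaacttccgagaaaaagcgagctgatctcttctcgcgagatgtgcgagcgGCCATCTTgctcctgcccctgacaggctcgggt
Ndufa6: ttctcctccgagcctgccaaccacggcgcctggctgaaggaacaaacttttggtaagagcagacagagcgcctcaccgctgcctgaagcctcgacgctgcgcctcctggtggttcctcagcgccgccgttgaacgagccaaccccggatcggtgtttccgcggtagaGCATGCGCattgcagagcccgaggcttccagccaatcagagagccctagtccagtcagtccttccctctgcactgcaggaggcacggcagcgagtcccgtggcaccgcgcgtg
Cox6b2: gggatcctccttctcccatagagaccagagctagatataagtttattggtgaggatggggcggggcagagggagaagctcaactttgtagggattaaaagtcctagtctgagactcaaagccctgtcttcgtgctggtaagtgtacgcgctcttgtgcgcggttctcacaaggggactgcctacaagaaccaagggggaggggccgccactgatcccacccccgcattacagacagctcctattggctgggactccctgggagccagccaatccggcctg
Cox7a1: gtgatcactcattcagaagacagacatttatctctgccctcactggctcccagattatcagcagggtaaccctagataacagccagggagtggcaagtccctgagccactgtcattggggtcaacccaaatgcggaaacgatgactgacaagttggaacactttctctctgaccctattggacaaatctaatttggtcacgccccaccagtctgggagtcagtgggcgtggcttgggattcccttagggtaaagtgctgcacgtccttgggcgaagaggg

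Genes that serve the same pathway outside the complexes were read from lists. In WT between the states, mitochondrial ribosomal proteins, which translate the mitochondrial messages, were called higher for 11 and lower for 1 of 77 (median log2 fold change 0.29, 66 above 0). Glycolysis, the supply of pyruvate and of ATP outside the mitochondrion, had 7 higher and 2 lower of 20 (0.65), and the regulators of mitochondrial biogenesis 4 and 1 of 11 (0.72). The lower regulator was Ppargc1a (-1.77), and the higher ones were Pprc1 (1.24), Esrra (0.97), Gabpb2 (0.73) and Yy1 (0.72). Electron carriers and enzymes of coenzyme Q synthesis, a list that also held Cox7a2l and Ndufab1, had 2 higher of 17 (0.25), namely Pdss1 of coenzyme Q synthesis (1.12) and Cox7a2l (1.88), which is no electron carrier, a list of nucleotide and phosphate carriers, uncoupling proteins, porins and Atpif1 3 of 10 (0.59), namely the adenine nucleotide carrier Slc25a5, the uncoupling protein Ucp2 and Atpif1, the inhibitor of the ATP synthase, the tricarboxylic acid (TCA) cycle 4 higher and 3 lower of 19 (0.15), assembly factors 3 and 4 of 45 (0.08) and factors of mitochondrial DNA expression 2 and 4 of 28 (0.03), beside 19% and 19.4% of all genes. With the hematopoietic score as a covariate, no gene of these lists passed in this comparison. Between the states in AhR-/-, where 10.6% of all genes were higher and 10.1% lower, glycolysis had 1 higher and 3 lower of 20 (-0.32) and mitochondrial ribosomal proteins 1 and 1 of 77 (0.26). In CYP1B1-/-, beside 15.5% and 17.9% of all genes, they had 4 and 3 (0.48) and 2 and 2 (0.19). The other lists had at most 2 higher and 5 lower members in either genotype. In AhR-/- against WT after HDM, where 9.22% of all genes were higher and 12.9% lower, glycolysis had 1 higher and 8 lower of 20, with a median of -1.12. Among its lower members, the lactate exporter Slc16a3 gave -3.0 (SE 0.58), the glucose transporter Slc2a1 -1.70 (SE 0.35) and lactate dehydrogenase Ldha -1.53 (SE 0.39), each with an edgeR adjusted p of 0.0268 or less, while Ldhb was higher (1.95, SE 0.53, edgeR adjusted p = 0.0291). The TCA cycle had 2 lower of 19, citrate synthase Cs (-1.37, SE 0.37) and fumarase Fh1 (-1.60, SE 0.44), and no higher member. Assembly factors had 4 higher and 2 lower of 45, mitochondrial ribosomal proteins 1 and 4 of 77, factors of mitochondrial DNA expression 1 and 3 of 28, among the latter the mitochondrial RNA polymerase Polrmt (-1.31, SE 0.30), electron carriers and coenzyme Q enzymes 2 and 1 of 17, all 3 of coenzyme Q synthesis (Coq2, Coq7 and Pdss2), biogenesis regulators 0 and 2 of 10 and the list of carriers, porins and Atpif1 0 and 1 of 8 (Ucp2). All these calls ended with the hematopoietic score as a covariate and without the libraries with Y-linked reads, where the glycolysis median was -0.63 and -0.85. The hematopoietic markers, given above, were lower in AhR-/- in median (5658 against 11041 summed CPM), and their ranges overlapped. In CYP1B1-/- against WT after HDM and in both comparisons at steady state, no gene of these lists passed in edgeR.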

How the data were processed

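RNA of sorted lung ECs was primed with oligo-dT, copied with template switching and made into libraries by tagmentation, which does not mark strand. The authors mapped the reads to mm10 with GSNAP (2020-03-12) after bcl2fastq 2.19.1 and counted them per gene with featureCounts 2.0.0 on Ensembl annotation. The deposited tables hold raw counts, the number of reads assigned to each gene. The strand setting and the handling of multi-mapped reads are not given in the sources used here, so a gene cannot be told from an overlapping or near-identical one.

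Genes were matched by identifier to GENCODE M21 (54147 of 54373 listed), and the 21793 protein-coding genes were tested in R 4.3.3 with edgeR 4.0.16 (filterByExpr with minimum count 10 and minimum total count 15, TMM, robust glmQLFit, glmQLFTest, Benjamini-Hochberg threshold 0.05). The filter passed 80, 77 and 81 of the 83 nuclear members at steady state, after HDM and in both tables together, and all 13 mitochondrial genes each time. Genotypes were compared within a table in 1 fit of the 3 genotypes, and states and interactions in 1 fit of the 22 libraries. The standard error was taken as the size of the log2 fold change over the root of its F statistic. CPM per kb uses the length of the principal transcript (APPRIS tag in the annotation, the median where several carry it). Shares were compared with exact permutation tests in SciPy 1.17.1, and correlations with 100000 resamples.

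The members and lists were chosen with earlier results of these data known. Named were all mitochondrial genes, up to 10 nuclear members of lowest p per direction past the threshold (the 3 of lowest p where none passed), the isoform genes of complex IV and Ndufa4, the Sdh genes and the highest and lowest member of each complex. The further WT calls are listed for completeness, and the sequences shown were chosen after values were seen.

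The alternatives were the likelihood ratio test, DESeq2 1.42.0, limma 3.58.1 voom with sample weights, RLE, fits without a filter or with 10 counts or more in every library, all genes, library sizes without the mt genes, no dominant predicted genes (those with 1% of any library or more), only the compared groups, the replicate number as a block, the hematopoietic score as a covariate, no libraries with Y-linked reads, and each library left out in turn. Adding the chromosome 1 copies to the mitochondrial share, and the alternatives for the other gene lists, were chosen after seeing the data. The NRF1 letters searched in promoters were shortened from a 10-letter form after its matches had been counted. The tests were tried on simulated data with 200 changed genes.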

Additional observations from a re-analysis of the deposited data

Results flagged for a closer look

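Among 216 checks of a value in a group of 4 libraries, 13 had a highest or lowest library set apart from the rest by a gap that is large against the range of the group (6.02%, where chance gives about 1 in 20). At steady state, WT replicate 4 was high for 5 nuclear members, with Cox5a at 39.1 CPM (others 25.5 to 26.1), Cox8a at 62.6 (38.8 to 42.1), Cox4i1 at 135 (97.6 to 101), Atp5e at 56.3 (36.6 to 39.3) and Uqcrq at 35.7 (25.8 to 27.1). The same library held the lowest mitochondrial share of the WT steady-state libraries, 0.855% against 1.46% to 1.72%. In WT after HDM, replicate 2 was low for Atp5g2 at 1.27 CPM (2.24 to 2.33) and high for Ndufa4l2 at 0.507 (0.152 to 0.192), replicate 1 was high for Cox7c at 21.6 (12.9 to 13.7) and replicate 3 for mt-Nd6 at 238 (141 to 152). In CYP1B1-/- after HDM, replicate 3 was high for Atp5e at 92.6 CPM (49.6 to 51.7), and replicate 4 was high for Atp5s at 15.2 (8.56 to 9.38) and mt-Atp6 at 60.9 (29.7 to 31.9). In AhR-/- after HDM, replicate 2 was high for mt-Nd5 at 1575 CPM (692 to 706).

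Outside the members, the mitochondrial ribosomal RNA genes mt-Rnr1 and mt-Rnr2 reached 1.62% of counts in AhR-/- replicate 2 after HDM, against 0.0596% to 0.284% in the steady-state libraries. The 7 pseudogenes on chromosome 1 reached 0.0442% in AhR-/- replicate 1 after HDM, against 0.00204% to 0.0272% at steady state. Each is the highest of the HDM libraries, and neither was tested.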

How the results depend on the processing

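No member called in edgeR changed direction in the comparison of its call under any alternative that gave it an adjusted p. Members without a call were not followed one by one, and medians near 0 did turn, as given here and with the comparisons. The counts below are those that moved by over 1.5 times, and the medians are among those that turned direction or moved by over 1.5 times. With each library left out in turn, no median moved beyond the spread between libraries. In AhR-/- against WT at steady state the mitochondrial median turned from 0.10 to -0.03 with limma voom, -0.09 with the hematopoietic score and -0.06 without WT replicate 4, and the nuclear median from -0.02 to 0.04 with limma voom and without WT replicate 4. For the interaction of AhR-/- with HDM the mitochondrial median turned from 0.27 to -0.13 with limma voom, and the nuclear median from -0.09 to 0.02 with the replicate block, 0.08 without AhR-/- HDM replicate 4 and 0.11 without WT HDM replicate 1. The cause of these moves was not tested, except that fits with fewer genes or libraries differ by construction. The share of all genes called in each alternative is not given here, so the counts of calls below describe the fits rather than the members. In AhR-/- against WT after HDM, the 3 nuclear calls became 6 with DESeq2, 30 with limma voom, 1 without a filter and 0 with the hematopoietic score or without the libraries with Y-linked reads. The 1 mitochondrial call there became 3 with the likelihood ratio test, DESeq2 and limma voom, 2 with RLE, at least 10 counts in every library or only the compared groups, and 0 without a filter, with all genes, with the hematopoietic score or without the libraries with Y-linked reads. In WT between the states, the 21 nuclear calls became 34 with DESeq2, 49 with limma voom, 48 with at least 10 counts, 54 with only the compared groups and 0 with the hematopoietic score, and the mitochondrial call became 2 with the likelihood ratio test, 3 with DESeq2 or all genes, 5 with limma voom, 6 with only the compared groups and 0 with the hematopoietic score, while the mitochondrial median was 0.27 with at least 10 counts, over the 10 of 13 genes that then remained. In AhR-/- between the states, the 4 nuclear calls became 24 with DESeq2, 10 with limma voom, 17 with RLE, 28 with at least 10 counts, 13 with all genes, 11 without dominant predicted genes and 0 with the hematopoietic score, the 0 mitochondrial calls became 1 with limma voom or only the compared groups, and the mitochondrial median was 0.11 with limma voom. In CYP1B1-/- between the states, the 5 nuclear calls became 18 with DESeq2, 14 with limma voom or RLE, 9 without a filter, with all genes or without dominant predicted genes, 33 with at least 10 counts, 2 with only the compared groups and 0 with the hematopoietic score, and the mitochondrial call became 3 with the likelihood ratio test, DESeq2, RLE, all genes or without dominant predicted genes, 2 without a filter, 5 with at least 10 counts and 0 with the hematopoietic score or only the compared groups. In these state comparisons leaving out the dominant predicted genes shifted the median of all genes by 0.10 to 0.16 on the log2 scale. For the interaction of AhR-/- with HDM limma voom called 23 nuclear members and 1 mitochondrial gene, with a nuclear median of -0.56, and for CYP1B1-/- the nuclear median was -0.60. With the chromosome 1 copies added, an alternative chosen after seeing the data, the 7 differences of the mitochondrial share moved by less than the spread between libraries, to 1.01 points for CYP1B1-/- against WT after HDM from 1.00.

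Leaving out each library in turn gave 0 to 7 nuclear and 0 to 3 mitochondrial calls for AhR-/- against WT after HDM (lowest without AhR-/- replicate 1, highest without AhR-/- replicate 2), 12 to 35 nuclear and 0 to 1 mitochondrial calls in WT between the states (nuclear lowest without HDM replicate 1, highest without HDM replicate 2), 0 to 26 nuclear calls in AhR-/- (without steady-state replicate 3 and HDM replicate 4) and 3 to 15 nuclear and 1 to 3 mitochondrial calls in CYP1B1-/- (nuclear without steady-state replicate 4 and HDM replicate 2, mitochondrial highest without steady-state replicate 2).

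The replicate numbers did not pair the libraries, as 8 of 20 same-numbered pairs within a state had a correlation over 0.1 (range -0.56 to 0.75), and 8 of 22 libraries correlated best with their own number. With the replicate number as a block, AhR-/- against WT after HDM gave 0 nuclear and 0 mitochondrial calls, AhR-/- between the states 9 nuclear calls, CYP1B1-/- between the states 0 mitochondrial calls, and the mitochondrial median of AhR-/- against WT at steady state was -0.24 and that of CYP1B1-/- against WT at steady state -0.52.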
